A study of Mus musculus with 12 samples.

Results

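Whole-adrenal RNA of 12 mice was sequenced, and 8 genes were examined that together carry farnesyl diphosphate through squalene and lanosterol to zymosterol, namely Fdft1, Sqle, Lss, Cyp51, Tm7sf2, Msmo1, Nsdhl and Hsd17b7. They were chosen by name as the enzymes of squalene formation, ring closure and removal of the methyl groups at carbons 4 and 14, and all 8 were found among the 24421 genes of the deposited table. The mice were 4 Abcg1 cKO animals, with 1 Cre allele and 2 conditional Abcg1 alleles, 4 Abca1 cKO animals, with 1 Cre allele and 2 conditional Abca1 alleles, and 4 controls. The design text gives the controls the Cre recombinase only, whereas the methods describe control littermates with the Cre allele alone or with 1 conditional allele. A mixed sv129-C57BL/6 background was common to all groups, and the study used females of 2 months unless it stated otherwise. Cre was driven by the aldosterone synthase gene Cyp11b2, so that recombination takes place in cortical cells while the medulla, vessels and immune cells of the gland keep intact alleles. The study set Abcg1 cKO adrenals against a pooled group of 8 libraries, control and Abca1 cKO together, to learn which transcripts change when Abcg1 is lost. The values below are the authors' mean normalized counts of these 2 groups. Values of single libraries stand under names that fit none of the sample labels and were left aside, so the spread between animals is not given, no test was run, and control and Abca1 cKO cannot be told apart within the pooled mean. A group mean can rest on 1 library, and whether it did so here was not tested. Differences are therefore given as sizes only.

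In this segment of the pathway squalene synthase, encoded by Fdft1, joins a pair of farnesyl diphosphate molecules and so commits them to sterols. Squalene epoxidase (Sqle) adds oxygen, and lanosterol synthase (Lss) folds the product into the first sterol. Cyp51, a cytochrome P450, removes the methyl group at carbon 14, and the reductase Tm7sf2 saturates the double bond this leaves. Msmo1, Nsdhl and Hsd17b7 then act in turn as oxidase, decarboxylating dehydrogenase and ketone reductase to strip the methyl groups from carbon 4. Transcription of the pathway is raised by the factor SREBP2 when sterols in the endoplasmic reticulum run low. In the adrenal cortex the end product, cholesterol, is the precursor of all steroid hormones, and mouse cortical cells also take it up from lipoproteins.

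All 8 enzymes had a higher mean in Abcg1 cKO adrenals than in the pooled group, by 33.2% at the least, for Tm7sf2, and by 162% at the most, for Hsd17b7. Their log2 ratios, Abcg1 cKO over the pooled group with a pseudocount of 1, had a median of 0.73. Over all 14305 genes with a mean of 10 or more across the libraries, a filter that all 8 enzymes passed, the median was 0.0013, and 50.3% of these genes had the higher mean in Abcg1 cKO adrenals. An Abcg1 cKO mean over 1.5 times the pooled mean was found for 6 of the 8 enzymes, against 2.59% of all genes passing the filter. Over 1.2 times were all 8, against 10.4% of genes, and over 2 times were Cyp51 and Hsd17b7, against 0.741%. The 8 genes were chosen with earlier results of these data known, so these shares describe them and are no test. Genes with few reads scatter more, so the same shares were taken over the 8348 genes whose mean lay within the range of the 8 enzymes, 279 to 5031. They were 6.98% for 1.2 times, 1.47% for 1.5 times and 0.407% for 2 times, and 55.2% of these genes had a higher mean in Abcg1 cKO adrenals. The log2 ratios of 9 adrenal cortex markers ranged from -0.15 to 0.77, with a median of 0.30. Taken relative to this median, all 8 enzymes stayed above 0 and 3 of them, Sqle, Cyp51 and Hsd17b7, remained over 1.5 times. The shares of all genes past these limits under the same scaling were not taken, so these counts have no background beside them. The plot of level against log2 ratio places all 8 in the upper part of the genes of like level.

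**Figure D1:**
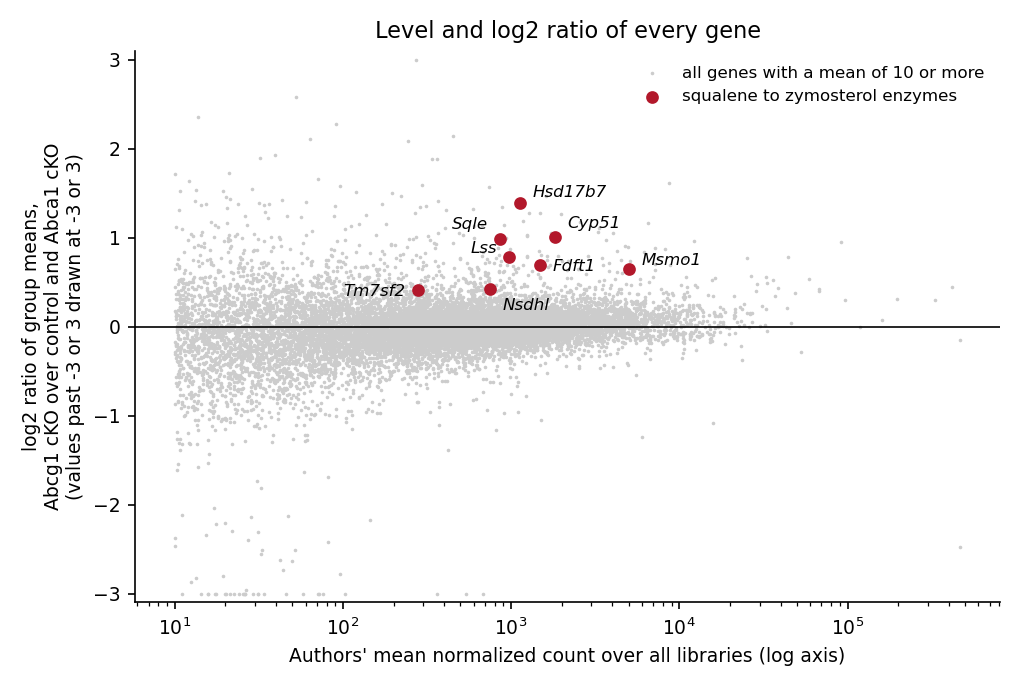
Each grey point is 1 of 14305 genes, with the authors' mean normalized count over all libraries on a log axis and the log2 ratio of group means, Abcg1 cKO over the pooled group, on the vertical axis. The 8 enzymes, in red, lie between 0.41 (Tm7sf2) and 1.39 (Hsd17b7).

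The first 3 steps make the sterol skeleton. Fdft1 had 1999 normalized counts on average in Abcg1 cKO adrenals and 1238 in the pooled group, a 1.61-fold difference (log2 ratio 0.69). Sqle, which carries out the first oxygen-dependent step of sterol synthesis, had 1283 in Abcg1 cKO adrenals against 651 in the pooled group, a 1.97-fold difference (log2 ratio 0.98). Lss, the cyclase, was at 1353 in Abcg1 cKO adrenals against 788 in the pooled group, or 1.72-fold (log2 ratio 0.78). Of these, Sqle stood highest among all genes passing the filter, at place 114 of 14305, with Lss at place 192 and Fdft1 at place 268. The mean count of Sqle relative to that of Fdft1, the enzyme just before it, was 0.642 in Abcg1 cKO adrenals and 0.526 in the pooled group. These counts are not scaled for transcript length. Per kilobase, Sqle and Fdft1 were at 465 and 541 in Abcg1 cKO adrenals and at 236 and 335 in the pooled group.

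The steps at carbon 14 differed from each other in size. Cyp51 averaged 2729 in Abcg1 cKO adrenals against 1355 in the pooled group, a 2.01-fold difference (log2 ratio 1.01), which put it at place 103. Tm7sf2, the reductase that follows it, had the smallest ratio of the 8, with means of 334 and 251 in Abcg1 cKO and pooled adrenals (log2 ratio 0.41, place 731). The same reduction can be carried out by the lamin B receptor, encoded by Lbr, which also anchors chromatin at the nuclear envelope. Lbr had 433 in Abcg1 cKO adrenals and 412 in the pooled group (log2 ratio 0.07). The mean count of Tm7sf2 was 0.772 of that of Lbr in Abcg1 cKO adrenals and 0.609 of it in the pooled group. These counts are not scaled for transcript length, and Lbr has the longer transcript, with 3510 bases against 1471. Per kilobase the order was the other way, with Tm7sf2 at 227 and Lbr at 123 in Abcg1 cKO adrenals. In the pooled group they were at 171 and 117.

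The enzymes at carbon 4 held both the most abundant transcript and the largest ratio. Msmo1, the methyl sterol oxidase, averaged 6634 in Abcg1 cKO adrenals against 4229 in the pooled group, a difference of 2405 normalized counts, the largest of the 8 in absolute terms although its ratio was 1.57-fold (log2 ratio 0.65). Nsdhl, an X-linked gene whose loss underlies the bare patches and striated mouse mutants, was at 909 in Abcg1 cKO adrenals against 677 in the pooled group, or 1.34-fold (log2 ratio 0.42, place 702). Hsd17b7, which reduces the ketone at carbon 3 and can also act on oestrone, had 1911 in Abcg1 cKO adrenals against 729 in the pooled group. This 2.62-fold difference (log2 ratio 1.39) stood at place 35 of 14305 genes. The mean count of Hsd17b7 was 1.08 times that of Nsdhl in the pooled group and 2.1 times in Abcg1 cKO adrenals. These counts are not scaled for transcript length, and Hsd17b7 has the longer transcript, with 4612 bases against 2168. Per kilobase, Hsd17b7 and Nsdhl were at 158 and 312 in the pooled group. In Abcg1 cKO adrenals they were at 414 and 419. Enzymes that act in sequence on the same methyl groups thus covered nearly the whole range of ratios seen among the 8.

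**Figure D2:**
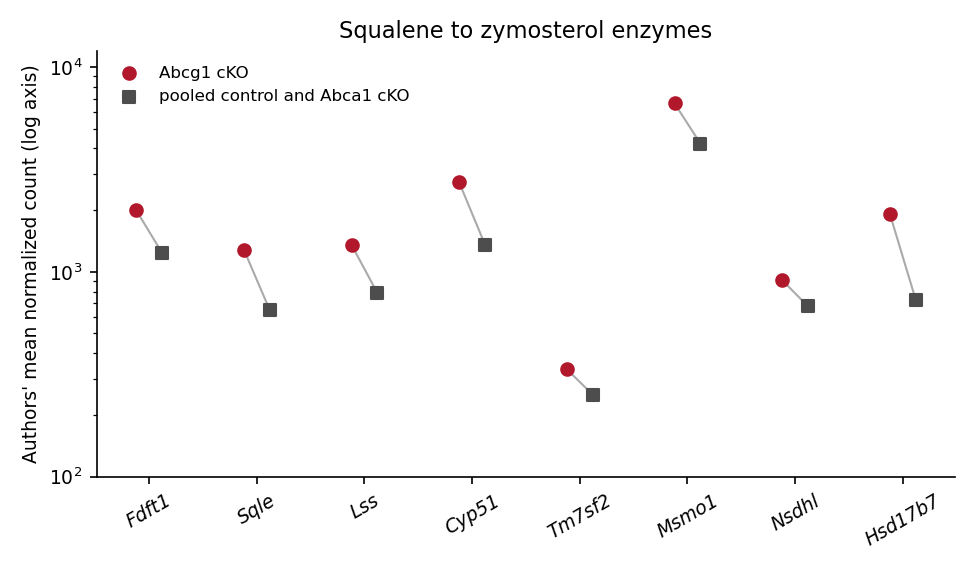
Authors' mean normalized count of each enzyme on a log axis, in pathway order, with Abcg1 cKO as red circles and pooled control and Abca1 cKO as grey squares joined by a line. Every circle lies above its square, with the widest gap at Hsd17b7 (1911 and 729) and the narrowest at Tm7sf2 (334 and 251).

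Stretches of promoter are shown for 4 enzymes, the pair of genes with the largest ratios and Lss and Nsdhl with a middle and a low one, because genes of this pathway are known to share binding sites for SREBP2 and its partner NF-Y. Each is the 150 bases that end just before the most upstream start annotated in RefSeq or GENCODE, read on the strand of the gene from RefSeq for GRCm38.p6. Capitals mark the NF-Y box CCAAT on either strand (ATTGG where it is on the other strand) and an 8-letter part of known sterol regulatory elements, TCACCNCA. The Hsd17b7 stretch is at chr1:169969243-169969392 on the minus strand, that of Cyp51 at chr5:4104747-4104896 on the minus strand, that of Lss at chr10:76531415-76531564 on the plus strand and that of Nsdhl at chrX:72918371-72918520 on the plus strand.
Hsd17b7: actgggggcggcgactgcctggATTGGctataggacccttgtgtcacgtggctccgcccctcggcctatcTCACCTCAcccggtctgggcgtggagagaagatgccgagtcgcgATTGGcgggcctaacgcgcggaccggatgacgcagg
Cyp51: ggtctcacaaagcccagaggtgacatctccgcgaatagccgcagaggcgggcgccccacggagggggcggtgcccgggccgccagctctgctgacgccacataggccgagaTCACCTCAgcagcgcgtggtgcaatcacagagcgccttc
Lss: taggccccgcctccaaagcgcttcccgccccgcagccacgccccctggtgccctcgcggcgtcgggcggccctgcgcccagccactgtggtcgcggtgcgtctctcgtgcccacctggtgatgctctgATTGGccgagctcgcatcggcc
Nsdhl: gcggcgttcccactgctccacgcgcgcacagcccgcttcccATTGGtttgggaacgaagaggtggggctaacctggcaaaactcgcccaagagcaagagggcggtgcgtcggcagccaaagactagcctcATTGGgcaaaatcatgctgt

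The RefSeq promoter table, which gives 250 bases before and 50 after a start, held 6 of the 8 genes, all but Fdft1 and Sqle. Each of the 6 had at least 1 NF-Y box, as did 5 of 6 promoter-matched genes of the steps from acetyl-CoA to farnesyl diphosphate, all 4 listed for the steps after zymosterol, and 37.4% of 32851 promoters of the same length. Hsd17b7 and Msmo1 had 3 each and Nsdhl had 4, while 11.7% of all promoters had 2 or more. These windows differ in start and extent from the printed stretches, so the numbers of boxes can differ. The box of Cyp51, at -29, lies outside its printed stretch, and that of Hsd17b7 shows 2 of the 3 boxes. The GC box GGGCGG, bound by Sp1 and related factors, was also in all 6, in the same numbers of earlier and later genes (5 of 6 and 4 of 4), and in 35.7% of all promoters. The short sterol element TCACCNCA was in the promoters of Hsd17b7 and Cyp51, in 1 of the 6 earlier genes, in 0 of the 4 later ones and in 4.42% of all promoters. It was chosen after these sequences had been seen. The stricter form TCACCCCAC was in none of the 6, in 1 of the 6 earlier and 0 of the 4 later genes, and in 0.551% of all promoters. The E-box CACGTG occurred in Hsd17b7 alone of the 6 enzymes, in 0 of the 6 earlier and 2 of the 4 later genes, and in 7.15% of all promoters. These are matches of letters in a window and not measured binding.

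**Figure D3:**
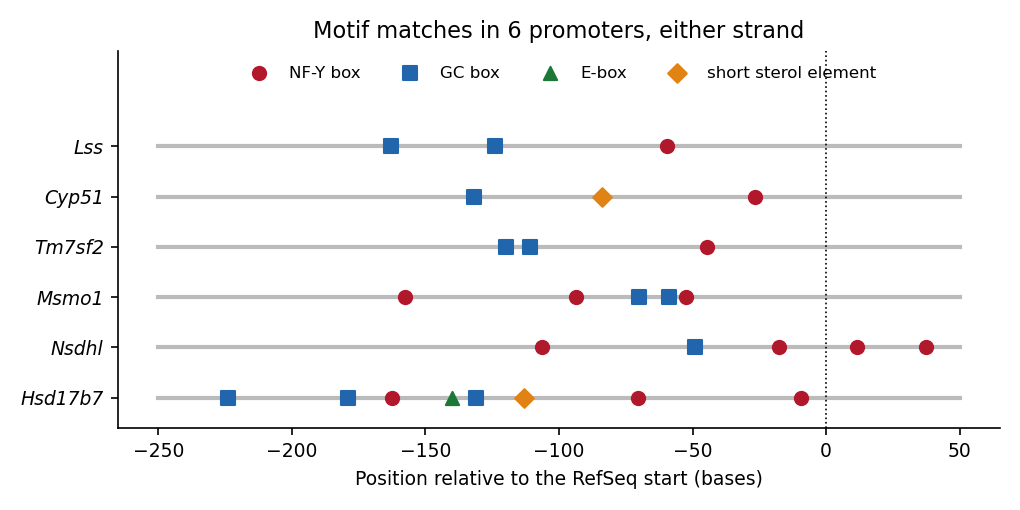
Matches to 4 motifs on either strand in the promoters of 6 of the enzymes, by position relative to the RefSeq start in bases, with grey lines for the window searched. All 6 hold NF-Y boxes (red circles) and GC boxes (blue squares), and the short sterol element (orange diamonds) is found in Cyp51 and Hsd17b7.

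Summed over the 8 enzymes, the mean normalized counts came to 17152 in Abcg1 cKO adrenals and 9918 in the pooled group, 1.73-fold. Msmo1 made up 38.7% of this sum in Abcg1 cKO adrenals and 42.6% in the pooled group, and Hsd17b7 made up 11.1% and 7.35%. To set levels of different genes side by side, each mean was divided by the length of the longest principal transcript in GENCODE M21, from 1471 bases for Tm7sf2 to 4667 for Lss. Per kilobase, Msmo1 was the most abundant of the 8 in both groups, followed by Cyp51 and then Fdft1. Msmo1 had 3246 normalized counts per kilobase in Abcg1 cKO adrenals against 2069 in the pooled group, and Cyp51 had 694 against 345. The other end of the order was less even. Hsd17b7 ranked 6 of 8 per kilobase in Abcg1 cKO adrenals and 8 of 8 in the pooled group, and Tm7sf2 ranked 8 in Abcg1 cKO adrenals and 6 in the pooled group. Without the spread between libraries it cannot be said which neighbours in this order differ.

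The genes lie on different chromosomes of GRCm38, the build the authors mapped to as mm10. In RefSeq, Fdft1 spans chr14:63145150-63181687, Sqle chr15:59315092-59331193, Lss chr10:76531565-76557139 and Cyp51 chr5:4080674-4104697. Tm7sf2 spans chr19:6062821-6067850, Msmo1 chr8:64718123-64733578, Nsdhl chrX:72918521-72958528 and Hsd17b7 chr1:169949535-169969242. All are protein coding, with 6 exons in the main transcript of Msmo1 at the low end and 22 in that of Lss at the high end. In GENCODE, 774 of 4227 exon bases of Fdft1 overlap Ctsb, which encodes the lysosomal protease cathepsin B, on the opposite strand, and 166 of 4415 of Cyp51 overlap Akap9, also on the opposite strand. Tm7sf2 shares 532 of 4403 with Vps51 on its own strand. Lss shares 381 of 10787 with an antisense transcript listed at 0 in both groups. The library kit keeps strand, and the strand setting of the counting was not found in the methods or labels, so reads of these shared bases are uncertain. Ctsb averaged 47838 in Abcg1 cKO adrenals against 41488 in the pooled group (log2 ratio 0.21), Akap9 had a log2 ratio of 0.10 and Vps51 one of -0.02. These ratios do not show how many reads of the shared bases were counted for the enzymes, and their part was not tested.

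The enzymes before and after this segment were set beside it. Of 7 examined between acetyl-CoA and farnesyl diphosphate, all 7 had a higher mean in Abcg1 cKO adrenals, against 50.3% of all genes passing the filter. Over 1.5 times the pooled mean were 5 of them, against 2.59% of genes. The median log2 ratio of the 7 was 0.91, with Idi1, the isomerase of isopentenyl diphosphate, highest at 1.31. Hsd17b7, at 1.39, was above all 7. The kinases Mvk and Pmvk were lowest at 0.33 and 0.32. Of a list of 4 enzymes for the steps from zymosterol to cholesterol, which also takes in Lbr of the step at carbon 14, all 4 had a higher mean and 2 were over 1.5 times, with a median log2 ratio of 0.50. Those over 1.5 times were Dhcr7 at 0.77 and Sc5d at 0.70, close to Lss and Fdft1. Ebp, the isomerase that takes up zymosterol, had a log2 ratio of 0.30. Lbr was the lowest of the list, at 0.07, and lowers its median. Without Lbr the middle value was that of Sc5d, 0.70, close to the median of 0.73 of the 8 enzymes. Relative to the cortex markers the median of the earlier enzymes was 0.61. That of the later list with Lbr was 0.20, and Sc5d was at 0.40. Mvk and Pmvk were at 0.03, Ebp at 0.01 and Lbr below 0, at -0.22. The differences between the 3 segments were not tested.

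Electron donors, a scaffold and other partners of the 8 enzymes had log2 ratios from -0.05 to 0.37, all below the lowest of the enzymes, 0.41. Por, the electron donor of Cyp51 and Sqle, had 7786 in Abcg1 cKO adrenals and 6009 in the pooled group (log2 ratio 0.37). Cytochrome b5 and its reductase pass electrons to Msmo1, and Cyb5r3, Cyb5a and Cyb5b had log2 ratios of 0.04, 0.05 and -0.05. Erg28, a scaffold of the enzymes at carbon 4 that was first described in yeast and is listed in the table under an older symbol, had 636 and 586 in Abcg1 cKO and pooled adrenals (log2 ratio 0.12). Its ratio was below those of its partners Msmo1, Nsdhl and Hsd17b7. Marchf6, a ubiquitin ligase that marks squalene epoxidase for degradation, had a log2 ratio of 0.22, and Pgrmc1, which binds Cyp51, one of 0.08. Of these 7 genes, 6 had a higher mean in Abcg1 cKO adrenals, 1 had a lower one, and none was over 1.5 times. Among all genes passing the filter, 50.3% had a higher mean and 2.59% were over 1.5 times. The median log2 ratio of the 7 was 0.08, and relative to the cortex markers it was below 0, at -0.22.

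Among 7 genes of the SREBP machinery the median log2 ratio was 0.11, or -0.19 relative to the cortex markers. Insig1, which is itself a target of SREBP and holds the complex back in the endoplasmic reticulum, had 2687 in Abcg1 cKO adrenals and 1303 in the pooled group (log2 ratio 1.04), a ratio like those of Cyp51 and Sqle. Srebf2 had a log2 ratio of 0.33 and Srebf1 one of 0.21, both under the lowest of the 8 enzymes. Scap was at -0.07, Insig2 at 0.11, and the proteases Mbtps1 and Mbtps2 at 0.01 and -0.01.

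**Figure D4:**
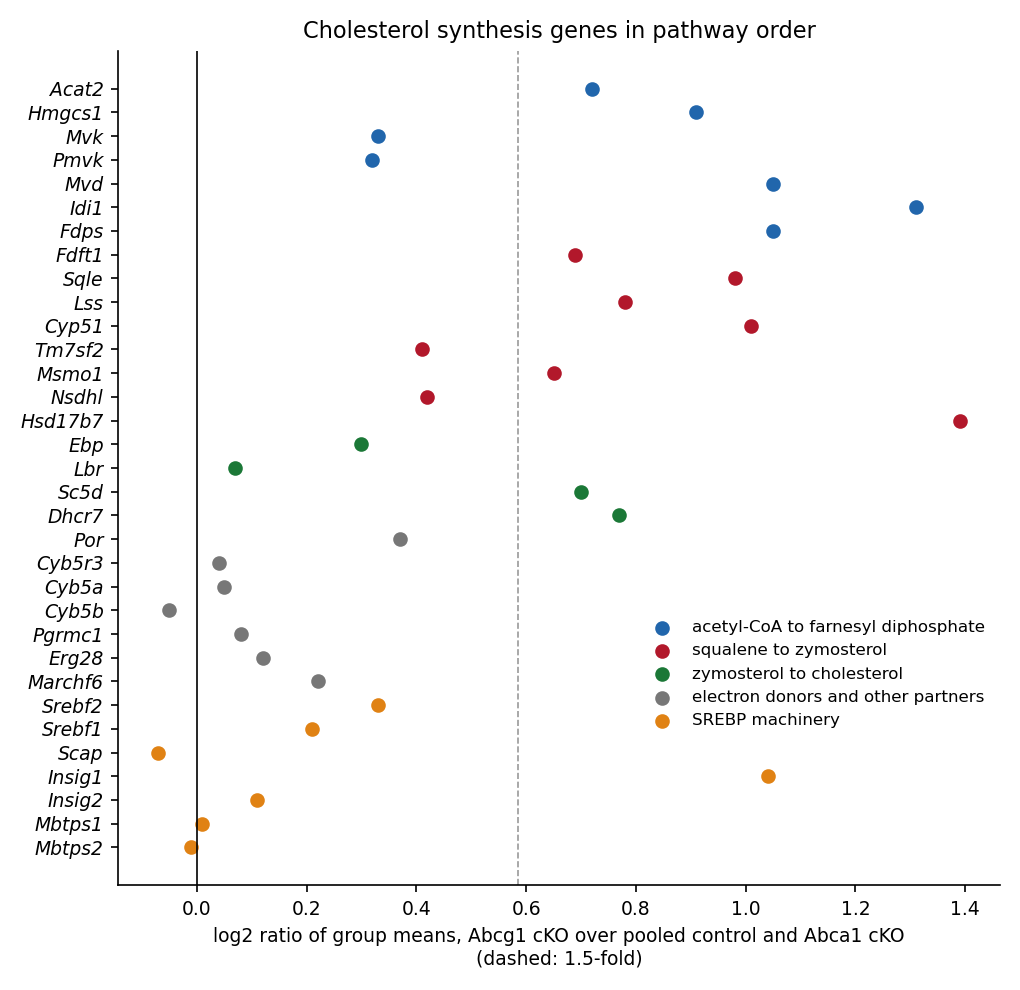
log2 ratio of group means, Abcg1 cKO over the pooled group, for genes from acetyl-CoA at the top to cholesterol, followed by partners and the SREBP machinery, with a dashed line at 1.5-fold. The squalene to zymosterol enzymes (red) lie from 0.41 to 1.39, and apart from Insig1 at 1.04 no partner or SREBP gene lies past the dashed line.

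The targeted gene and the cell makeup of the glands bear on how these ratios are read. Abcg1, counted over all its exons, averaged 250 in Abcg1 cKO adrenals against 305 in the pooled group (log2 ratio -0.29), and Cre removes only 1 of its exons, so this is a weak check of the labels. Abca1 had a log2 ratio of 0.37 in a comparison whose pooled group holds the Abca1 cKO adrenals. Cortex markers such as Star and Cyp11a1 were abundant, as the tissue label asks. Beside the counts of markers below, 50.3% of all genes passing the filter had a higher mean in Abcg1 cKO adrenals. Of the 9 cortex markers listed, 7 had a higher mean, and the median log2 ratio of the 9 was 0.30. They did not share a direction, with Hsd3b1 lowest at -0.15, Mc2r at -0.07 and Scarb1 highest at 0.77. Nr5a1 was at 0.12 and Cyp11b2 at 0.14. The summed level of the 9 markers was 1721790 and 1485048 in Abcg1 cKO and pooled adrenals. In whole glands, fewer cells of a type and less RNA per cell cannot be told apart. All 7 adipocyte markers had a higher mean in Abcg1 cKO adrenals, with log2 ratios from 0.58 for Plin1 to 2.58 for Lep, a median of 1.18 and summed levels of 33309 and 13888. All 6 medulla markers were higher as well, from 0.34 to 0.83, with summed levels of 176405 and 129603. Of 5 liver markers, Alb, Apoa2, Ttr and Serpina1a had a lower mean and Cyp2e1 a higher one, with log2 ratios from -3.63 to 1.06. Their summed levels of 2731 and 2186 are mostly Cyp2e1, at 2644 in Abcg1 cKO and 1271 in pooled adrenals, while Alb had 62.1 and 781. All 4 lymphocyte markers had lower means, from -1.16 to -0.67 (summed levels 27.8 and 57.2). Only 2 of these 4 passed the filter of a mean of 10, and the highest mean was 17.4, so their ratios are near the floor. The 4 macrophage markers lay between -0.30 and 0.13 (summed levels 9889 and 10371). Of 5 kidney markers, Umod, Slc12a1 and Kap were listed at 0 in both groups, and the summed levels were 1.56 and 5.17. The part of fat, medulla or liver RNA in the ratios of the 8 enzymes was not tested.

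**Figure D5:**
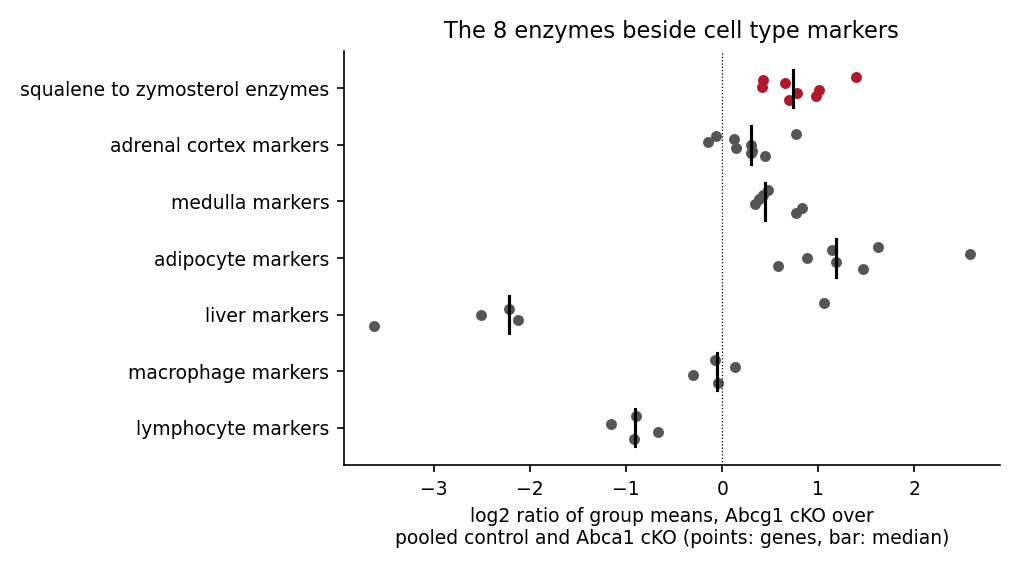
log2 ratio of group means, Abcg1 cKO over the pooled group, for the 8 enzymes and for markers of 6 cell types or tissues, with 1 point per gene and a bar at the median. The median of the 8 enzymes, 0.73, lies between those of the cortex markers, 0.30, and the adipocyte markers, 1.18.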

How the data were processed

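RNA of whole adrenals was sequenced as polyA-selected, stranded libraries, 4 each of Abcg1 cKO, Abca1 cKO and control. According to the methods and processing notes, the authors trimmed reads with cutadapt 4.0, aligned with STAR 2.7.10a to mm10, used HTSeq 0.13.5 to count unique reads of each gene, and scaled the counts in DESeq2 1.38.3. The signal values the authors deposited and that are used here are mean normalized counts, counts divided by size factors and averaged over a group. Another 12 columns of single libraries match no sample label by name and were not used. Further columns hold the fold changes, standard errors and p-values of the authors' own comparison and were not used. The planned tests per library could for this reason not be run, raw depth is not known, and groups are described by their means. Log2 ratios (pseudocount 1), shares and ranks were computed in Python 3.11.15 with pandas 2.3.3 and NumPy 2.4.6, over genes whose mean was at least 10. The log2 ratio was tried on simulated data and the motif search on a made sequence, while shares and ranks were not. The 8 genes and the lists were chosen with earlier results of these data known. The rule for named genes took the 8 enzymes, Abcg1, Abca1 and the members of the sterol, partner, regulator and marker lists, and the genes that overlap an enzyme were added after the annotation was read. The rule's nearest genes by correlation need single libraries and were not sought. Some genes that the sterol lists take in are not reported here, and list values leave them out. Of the lists, 1 gene, Faxdc2, was not found and 2 were found under older symbols. Positions, promoters and transcript lengths are from RefSeq GRCm38.p6 and GENCODE M21, the build of the authors' mapping. Alternatives were other pseudocounts, filters and scalings.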

Additional observations from a re-analysis of the deposited data

How the results depend on the processing

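The log2 ratios of the 8 enzymes moved by at most 0.01 with pseudocounts of 0.1 and 10 or when centred on the median of all genes. At these levels, and with a median of 0.0013 over all genes, such settings could change little. The list medians did not move with no filter or a mean of 50 or more. Every gene of these lists had a mean of 279 or more, so the filters could remove none and are no check. Centred on the median of the 9 adrenal cortex markers, a scaling chosen after seeing the data, all 8 stayed above 0, from 0.12 for Tm7sf2 to 1.09 for Hsd17b7, with a median of 0.44 and 3 enzymes over 1.5 times. The shares of all genes past these limits were not taken under this scaling. The medians of the earlier enzymes and of the later list with Lbr were 0.61 and 0.20 under it, from 0.91 and 0.50. The medians of the partners and of the SREBP machinery changed sign under it, to -0.22 and -0.19. With a fold limit of 2, also chosen later, 2 enzymes passed. No paired analysis was possible because the columns of single libraries carry no sample label. For the same reason no library was left out, control was not used alone, and edgeR, limma and DESeq2 were not run. Depth per library and the spread between animals limit every value here and are not known from group means.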
